A study of Mus musculus with 12 samples.

Results

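Of the 55421 genes in the count table, 9 encode proteins that mark megakaryocytes and the platelets they shed: Pf4, Ppbp, Itga2b, Itgb3, Gp1ba, Gp1bb, Gp9, Gp5 and Treml1. They were chosen by symbol as known genes of this lineage, although earlier results of these data were known. Each was matched to 1 Ensembl gene. All 9 had enough counts to be tested, and none was at 0 in any library. They were followed through all 12 libraries of cells that had been sorted as bone marrow endothelial cells.

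The libraries came from 12 mice, 1 library per mouse, in 4 groups of 3. Naive control mice, hypertensive mice and mice with myocardial infarction (MI) were C57BL/6J, and the atherosclerotic mice carried the Apoe(tm1Unc) allele, a knockout of apolipoprotein E. All mice were 20 weeks old. Hypertension came from infusion of the pressor peptide angiotensin II over 8 weeks, and the Apoe-/- mice ate a western diet for 10 weeks. The labels place the MI mice at day 2 after infarction, whereas the text of the study has day 4 for such cells. The Apoe-/- mice differ from the other groups in genotype and diet together, so these cannot be told apart, and the same 3 controls served every comparison. According to the methods, angiotensin II came from implanted minipumps and MI from ligation of a coronary artery. Because the controls were naive, surgery cannot be told apart from either condition. Libraries are named here by group and by the replicate number 2, 3 or 4 of the labels, and values are given in that order.

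Megakaryocytes are very large cells of the bone marrow that lie against its sinusoidal vessels and release platelets into the blood. Platelets stop bleeding through surface receptors: the GPIb-IX-V complex catches von Willebrand factor on a damaged vessel wall, and the integrin αIIbβ3 then binds fibrinogen and links platelets to each other. Their alpha granules hold chemokines and adhesive proteins that are released on activation. Platelets keep RNA of the megakaryocyte, so RNA of the parent cell and of its platelets cannot be told apart in these bulk samples, and neither can fewer cells of a type and less RNA per cell.

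Total counts on genes lay between 17007088 and 25136936 per library, and values are counts brought to a common library total (CPM) with TMM factors between 0.934 and 1.06. The targeted gene Apoe was at 7.28 to 14.8 CPM in the Apoe-/- libraries and at 450.5 CPM or more in all others. According to the methods, endothelial cells were gated as negative for TER-119, CD41 and CD45 and positive for CD31 and SCA-1, and CD41 is the protein of Itga2b. The 9 genes together held between 418 and 1815 CPM, more in every library than the 18 endothelial marker genes, which summed to between 137 and 294 CPM. Neutrophil markers (13 genes, 34088 to 99231 CPM) and erythroid markers (14 of 15 genes listed, 11575 to 47465 CPM) were far above both. These sums depend on which genes were listed and were not divided by exon length. They therefore do not measure the share of each cell type in the RNA.

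Upstream sequences are shown for the 2 chemokine genes, which had the highest levels, and for the 3 receptor genes with matches to both motifs searched. Promoter windows were the 200 bases before the RefSeq start (GRCm38.p6), found for 8 of the 9 genes and read 5′ to 3′ on the strand of the gene. Capitals mark matches on either strand to GATAA, letters bound by GATA factors such as GATA1, or to AGGAAG or CGGAAG, letters bound by ETS factors such as FLI1. These motifs do not overlap in the windows shown.
Pf4 promoter, chr5:90772235-90772434, plus strand: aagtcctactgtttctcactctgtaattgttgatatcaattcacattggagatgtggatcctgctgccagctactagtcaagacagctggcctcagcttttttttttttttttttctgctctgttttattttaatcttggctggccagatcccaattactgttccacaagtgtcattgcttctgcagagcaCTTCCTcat
Ppbp promoter, chr5:90768318-90768517, plus strand: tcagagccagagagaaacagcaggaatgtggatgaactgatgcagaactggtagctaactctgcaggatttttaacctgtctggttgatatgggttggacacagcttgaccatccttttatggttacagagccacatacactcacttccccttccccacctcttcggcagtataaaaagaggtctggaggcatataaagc
Gp1ba promoter, chr11:70638922-70639121, plus strand: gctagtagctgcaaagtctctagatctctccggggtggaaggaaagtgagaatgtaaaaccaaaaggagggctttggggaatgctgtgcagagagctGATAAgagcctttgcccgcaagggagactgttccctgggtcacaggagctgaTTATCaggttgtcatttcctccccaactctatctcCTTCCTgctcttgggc
Gp9 promoter, chr6:87777870-87778069, plus strand: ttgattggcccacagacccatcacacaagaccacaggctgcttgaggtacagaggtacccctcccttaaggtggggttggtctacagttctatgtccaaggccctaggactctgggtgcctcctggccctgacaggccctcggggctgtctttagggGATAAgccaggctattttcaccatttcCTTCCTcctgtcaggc
Gp5 promoter, chr16:30310782-30310981, minus strand: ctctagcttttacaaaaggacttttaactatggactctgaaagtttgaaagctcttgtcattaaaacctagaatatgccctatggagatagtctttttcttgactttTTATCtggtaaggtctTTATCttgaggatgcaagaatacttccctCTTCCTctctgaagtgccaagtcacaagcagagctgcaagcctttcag

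GATAA or its reverse complement, TTATC, stood in 3 of the 8 windows, those of Gp1ba, Gp9 and Gp5, and in 18.1% of 32851 promoter windows of the same length. The ETS letters stood in 6 of 8 windows and in 33.9% of all, and both motifs in 3 of 8 and in 5.19% of all. A match describes letters only, and no binding was measured.

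Compared per kb of exon, the only scale used between single genes, the chemokines led by far. The mean over 12 libraries was 376 CPM per kb for Ppbp (SD 198) and 246 CPM per kb for Pf4 (SD 135). The small receptor subunit gene Gp9 followed at 44.1 (SD 10.4) and Gp5 at 24.9 (SD 8.35) CPM per kb. Itgb3 (16.5, SD 9.97), Itga2b (15.7, SD 5.41), Treml1 (14.0, SD 5.88) and Gp1ba (12.6, SD 6.94) lay within each other's spread in CPM per kb. Gp1bb came last at 0.937 CPM per kb (SD 0.372). This rank is uncertain, because 91.1% of the exon bases it was divided by are shared with Sept5 on the same strand. Among neighbours in this order, Ppbp and Pf4 also overlapped in their ranges (149.8 to 898 and 113 to 527), as did Gp9 and Gp5 (26.3 to 65.4 and 11.8 to 39.8).

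**Figure D1:**
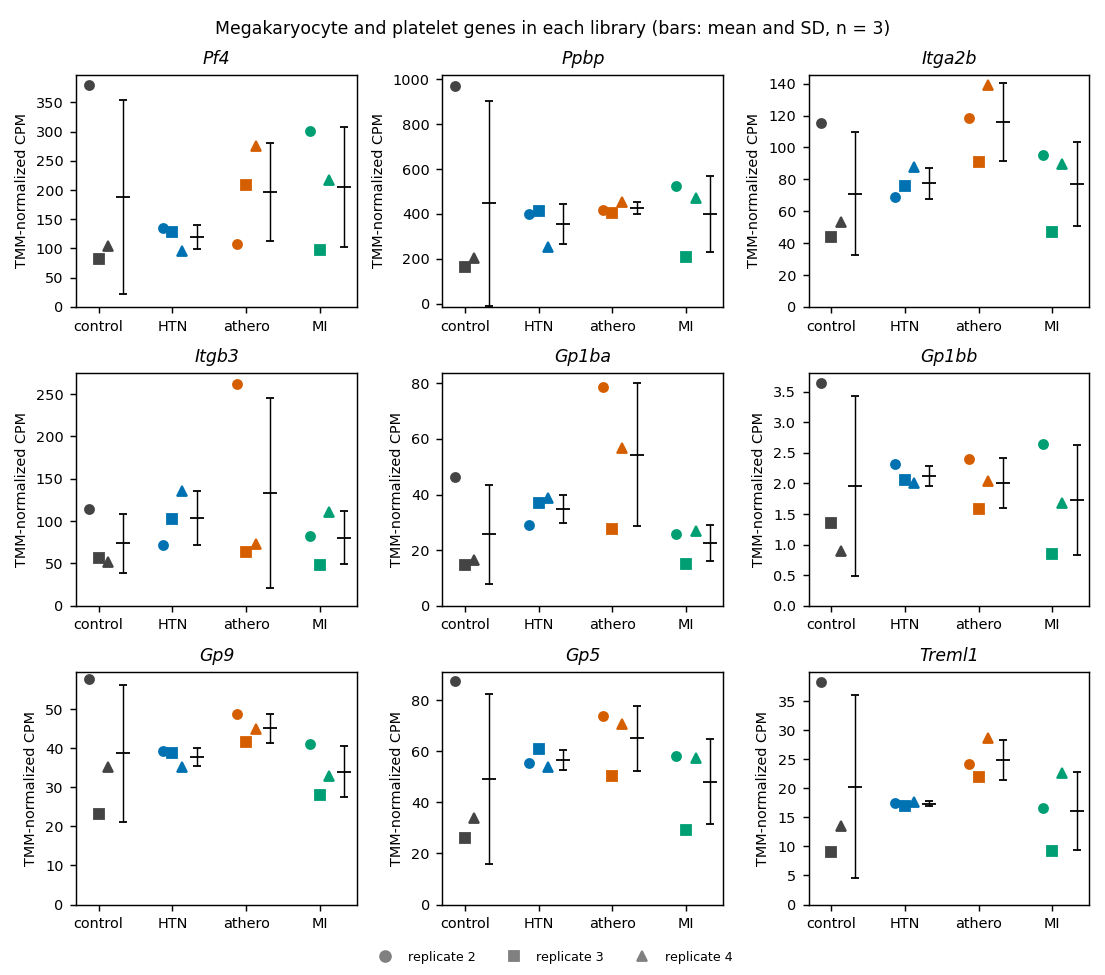
TMM-normalized CPM (vertical axes, linear) of the 9 genes in the 12 libraries by group (horizontal axes; HTN, hypertension; athero, atherosclerosis), 1 symbol per library by replicate number, with mean and SD at the right of each group (n = 3). Control replicate 2 is the highest library for 6 of the 9 genes, while hypertension libraries lie close to each other for most.

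Pf4 (ENSMUSG00000029373, chr5:90772435-90773383, plus strand) encodes platelet factor 4 (CXCL4), a heparin-binding chemokine of the alpha granule. In controls, Pf4 stood at 379.7, 81.3 and 105 CPM, and in hypertension at 134, 129 and 96.4. In atherosclerosis it stood at 107, 208 and 275 CPM, and after MI at 301, 97.3 and 218. Control 2 and MI 2 were highest, control 3 lowest, and every disease group overlapped with the controls. With n = 3 and SD throughout, the mean level in CPM was 189 ± 166 for controls, 119.9 ± 20.5 for hypertension, 197 ± 84.2 for atherosclerosis and 205 ± 102 for MI.

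Ppbp (ENSMUSG00000029372, chr5:90768518-90770063, plus strand), the neighbour of Pf4 on chromosome 5 with 2371 bases between them, encodes pro-platelet basic protein, from which the neutrophil-attracting chemokine CXCL7 is cut. The control libraries held 973, 162 and 205 CPM, and the hypertension libraries 401, 414 and 254. The atherosclerosis libraries held 419, 405 and 454 CPM, and the MI libraries 524, 207 and 472. Control 2 stood 4.74-fold above the higher of the other controls, and the ratio of the highest to the lowest library, 5.99, was the largest of the 9 genes. The atherosclerosis libraries spanned 405 to 454 CPM, inside the range of the controls. Means (SD, n = 3) were 447 ± 456 CPM for controls, 356 ± 88.6 for hypertension, 426 ± 25.4 for atherosclerosis and 401 ± 170.1 for MI. Per kb, the ratio of Ppbp to Pf4 was between 1.10 and 2.60, highest in atherosclerosis 2 and lowest in atherosclerosis 4.

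Itga2b (ENSMUSG00000034664, chr11:102453297-102470122, minus strand) encodes integrin αIIb, or CD41, the protein against which the cells were gated. Its CPM was 115, 44.1 and 53.5 in controls 2, 3 and 4 and 69.0, 75.6 and 87.9 in the hypertensive mice. It was 119, 90.6 and 139 in the Apoe-/- mice and 95.1, 47.0 and 89.7 in the mice with MI. All 3 atherosclerosis libraries were above controls 3 and 4, but 1 of them was below control 2, so the groups overlapped. With n = 3 and SD throughout, the mean level in CPM was 71.0 ± 38.7 for controls, 77.5 ± 9.56 for hypertension, 116 ± 24.3 for atherosclerosis and 77.3 ± 26.3 for MI.

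Itgb3 (ENSMUSG00000020689, chr11:104608000-104670476, plus strand) encodes integrin β3, the partner of αIIb, which pairs with the αv chain in other cells, osteoclasts and endothelium among them. In controls, Itgb3 stood at 114, 56.2 and 51.3 CPM, and in hypertension at 72.1, 102 and 136. In atherosclerosis it stood at 262, 63.2 and 72.9 CPM, and after MI at 82.1, 48.0 and 111. Atherosclerosis 2 was the highest of the 12 libraries, although the other atherosclerosis libraries lay among the controls. Means (SD, n = 3) were 73.8 ± 34.9 CPM for controls, 103 ± 31.8 for hypertension, 133 ± 112 for atherosclerosis and 80.3 ± 31.4 for MI. Per kb, the ratio of Itgb3 to Itga2b was 2.04 in atherosclerosis 2 and 0.485 in atherosclerosis 4, with the other 10 libraries between 0.645 and 1.43. Markers of osteoclasts (8 genes) summed to between 489 and 805 CPM over all libraries, and their part in the level of Itgb3 was not tested.

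Gp1ba (ENSMUSG00000050675, chr11:70639122-70642036, plus strand) encodes GPIbα, the chain that binds von Willebrand factor. The control libraries held 46.3, 14.7 and 16.3 CPM, and the hypertension libraries 28.9, 36.8 and 38.7. The atherosclerosis libraries held 78.8, 27.4 and 56.6 CPM, and the MI libraries 25.8, 15.2 and 27.1. Atherosclerosis 2 and 4 were the only libraries above control 2, and control 3 and MI 3 were lowest. With n = 3 and SD throughout, the mean level in CPM was 25.8 ± 17.8 for controls, 34.8 ± 5.20 for hypertension, 54.3 ± 25.7 for atherosclerosis and 22.7 ± 6.53 for MI.

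Gp1bb (ENSMUSG00000050761, chr16:18620317-18622403, minus strand) encodes GPIbβ, which is joined to GPIbα by disulfide bonds. Its CPM was 3.64, 1.35 and 0.892 in controls 2, 3 and 4 and 2.32, 2.06 and 2.00 in the hypertensive mice. It was 2.40, 1.59 and 2.04 in the Apoe-/- mice and 2.65, 0.847 and 1.68 in the mice with MI. Control 2 was highest, control 4 and MI 3 lowest, and each disease group overlapped with controls. Means (SD, n = 3) were 1.96 ± 1.47 CPM for controls, 2.13 ± 0.167 for hypertension, 2.01 ± 0.409 for atherosclerosis and 1.73 ± 0.902 for MI. These values rest on 16 to 65 counts. Of the 2087 exon bases of Gp1bb, 1902 (91.1%) are shared with Sept5 on the same strand and 867 (41.5%) with Gm49601, and the authors' counting with STAR assigns no read that falls on more than 1 gene, so the level is uncertain.

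Gp9 (ENSMUSG00000030054, chr6:87778072-87779768, plus strand) encodes GPIX, the chain that completes the GPIb-IX complex. In controls, Gp9 stood at 57.6, 23.2 and 35.1 CPM, and in hypertension at 39.2, 38.8 and 35.0. In atherosclerosis it stood at 48.7, 41.5 and 44.9 CPM, and after MI at 41.1, 28.1 and 32.8. It varied least of the 9 genes, with the highest library 2.49-fold above the lowest, and control 2 was again highest and control 3 lowest. Each disease group overlapped with controls, with means (SD, n = 3) of 38.6 ± 17.5 CPM for controls, 37.7 ± 2.27 for hypertension, 45.0 ± 3.64 for atherosclerosis and 34.0 ± 6.57 for MI.

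Gp5 (ENSMUSG00000047953, chr16:30307685-30310779, minus strand) encodes GPV, a chain cleaved by thrombin. The control libraries held 87.5, 25.9 and 34.1 CPM, and the hypertension libraries 55.3, 61.1 and 53.8. The atherosclerosis libraries held 73.9, 50.5 and 70.8 CPM, and the MI libraries 58.3, 29.0 and 57.2. The order of libraries was much like that of Gp9, with control 2 highest and control 3 and MI 3 lowest. Each disease group overlapped with controls, with means (SD, n = 3) of 49.1 ± 33.4 CPM for controls, 56.7 ± 3.86 for hypertension, 65.1 ± 12.7 for atherosclerosis and 48.2 ± 16.6 for MI.

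Treml1 (ENSMUSG00000023993, chr17:48359916-48367176, plus strand) encodes TLT-1, a receptor of the alpha granule membrane that reaches the surface on activation. Its CPM was 38.3, 9.04 and 13.5 in controls 2, 3 and 4 and 17.5, 16.9 and 17.6 in the hypertensive mice. It was 24.2, 21.9 and 28.6 in the Apoe-/- mice and 16.6, 9.21 and 22.6 in the mice with MI. The hypertension libraries agreed within 1 CPM, whereas control 2 stood 2.84-fold above the higher of the other controls. All 3 atherosclerosis libraries were above controls 3 and 4 and below control 2. Means (SD, n = 3) were 20.3 ± 15.8 CPM for controls, 17.3 ± 0.407 for hypertension, 24.9 ± 3.42 for atherosclerosis and 16.1 ± 6.70 for MI.

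The levels of most of the 9 genes moved together across mice, with wider differences within the control and MI groups than among the hypertensive mice. Itgb3 was an exception on both counts, with r of 0.087 with Pf4 and an SD after MI (31.4 CPM) like that in hypertension (31.8 CPM). Control 2 was the highest library for 6 of the 9 genes and among the highest 3 for all 9. Control 3 was the lowest library for 7 genes and MI 3 for the other 2, and both were among the lowest 3 for all 9. Control 2 stood at least 2-fold above both other controls for 8 of the 9 genes, all but Gp9 at 1.64-fold, with a median of 2.69-fold, whereas 1.85% of the 15999 genes tested did so. As a mean log2 difference from each gene's average, controls 2, 3 and 4 stood at 0.85, -0.86 and -0.64, and hypertension 2, 3 and 4 at -0.02, 0.08 and -0.0041. Atherosclerosis 2, 3 and 4 stood at 0.54, 0.04 and 0.46, and MI 2, 3 and 4 at 0.23, -0.82 and 0.15.

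**Figure D2:**
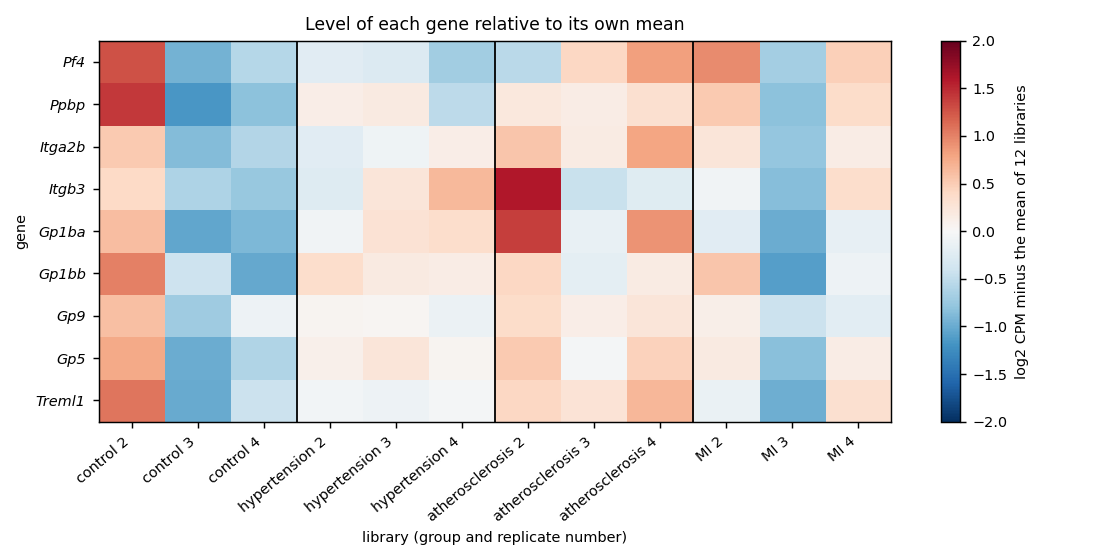
Colour gives log2 CPM of each of the 9 genes (rows) in each library (columns, by group and replicate number) minus the mean of that gene over the 12 libraries. Control 2 is red and controls 3 and 4 are mostly blue, so that the controls differ from each other in nearly every gene, while Itgb3 and Gp1ba are reddest in atherosclerosis 2.

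Marker sums of some other cell types also differed among the controls, and others were close. Erythroid markers summed to 30879 CPM in control 2 and to 17807 and 23949 in controls 3 and 4, and neutrophil markers to 81585, 63546 and 59012. Endothelial markers summed to 207, 157 and 278 CPM in the same 3 controls. Stem and progenitor markers summed to 142, 139 and 142 CPM, macrophage markers to 983, 957 and 1055, and B cell markers to 755, 592 and 508. Control 2 was thus highest for erythroid, neutrophil and B cell markers, by less than for the platelet genes, and in the middle for endothelial and macrophage markers. It was the lowest control for monocyte markers (1368, 1927 and 1599 CPM in controls 2, 3 and 4) and osteoclast markers (537, 673 and 782 CPM). For basophil and mast cell markers it was in the middle (2595, 3354 and 2168 CPM). Whether these cells had a part in the platelet gene levels was not tested.

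Over the 12 libraries, the log2 CPM of the 36 pairs of genes had Pearson's r between 0.087 and 0.93, with a median of 0.77, and 31 pairs had a permutation p under 0.05 after Benjamini-Hochberg adjustment over the 36. Spearman's rho had a median of 0.73 and also 31 such pairs. With group means subtracted, so that only mice of 1 group were compared, the median r was 0.83, but 7 pairs passed in the permutation test within groups. Without the 2 libraries farthest from the median of the first gene, the median r was 0.75 and 23 pairs passed. Without control 2 the median r was also 0.75.

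The granule receptor Treml1 and the receptor chain Gp5 were among the pairs with the highest r (r = 0.93, permutation p = 3e-05, adjusted p = 0.00036; rho = 0.80, permutation p = 0.00275, adjusted p = 0.009; r = 0.83 without the 2 farthest libraries). Pf4 and Ppbp gave r = 0.87 (permutation p = 8e-05, adjusted p = 0.00048) and rho = 0.90 (permutation p = 0.00013, adjusted p = 0.00468), with r = 0.77 without the 2 farthest libraries. Of the 36 pairs, Itgb3 and Pf4 had the lowest r. With Pf4 the r of Itgb3 was 0.087 (permutation p = 0.794, adjusted p = 0.794) and its rho 0.29 (permutation p = 0.35, adjusted p = 0.35), whereas with Gp1ba its r was 0.82 (permutation p = 0.00091, adjusted p = 0.00218) and its rho 0.76 (permutation p = 0.00521, adjusted p = 0.013; r = 0.71 without the 2 farthest libraries). With the other chemokine, Ppbp, Itgb3 lay between these, at r = 0.47 (permutation p = 0.125, adjusted p = 0.132; r = 0.39 without the 2 farthest libraries) and rho = 0.62 (permutation p = 0.0345, adjusted p = 0.04).

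**Figure D3:**
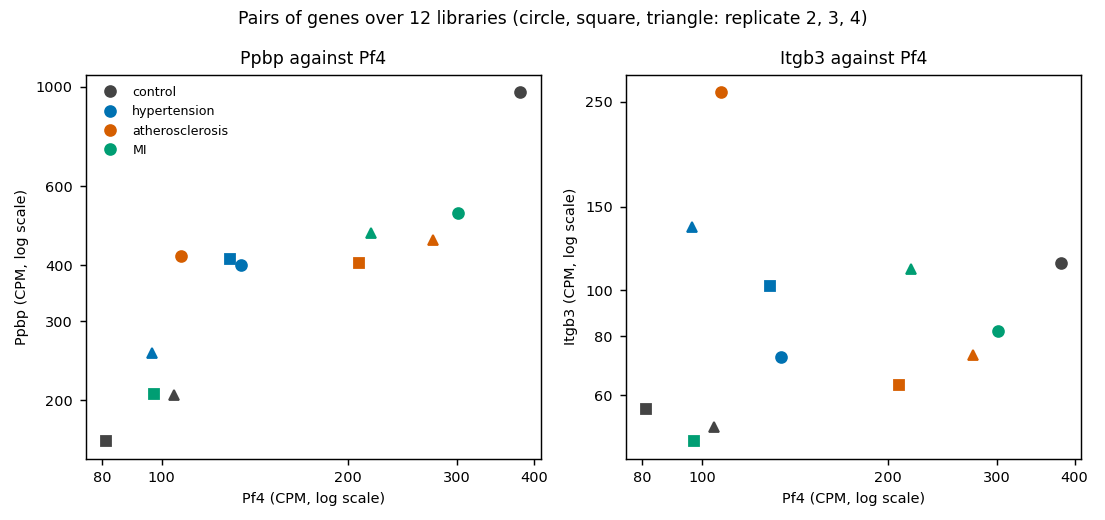
CPM of Ppbp (left) and Itgb3 (right) against Pf4 in the 12 libraries, on log axes, coloured by group and shaped by replicate number. Ppbp follows Pf4 in the left panel, and in the right panel the library highest in Itgb3, atherosclerosis 2 at 262 CPM, is among the lower ones in Pf4 at 107 CPM.

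Libraries also differed in how long and short genes compared. The median log2 difference between the fifth of genes with the longest exons and the fifth with the shortest was highest in atherosclerosis 2 (0.30) and atherosclerosis 4 (0.25) and lowest in MI 2 (-0.20) and control 2 (-0.20). Itgb3 and Itga2b have the longest exon totals of the 9 genes, 5901 and 5454 bases, and Pf4 and Gp9 the shortest, 721 and 881. Itga2b had its 2 highest values in atherosclerosis 2 and 4, 119 and 139 CPM, and Itgb3 was at 262 and 72.9 CPM in these libraries. The part of this length difference in these levels of single libraries was not tested. With the trend on exon length removed from each library, a step chosen after seeing the data, all 9 genes were higher than controls in atherosclerosis (median log2 fold change 0.43), and none was called by edgeR's quasi-likelihood test. Itga2b then had a log2 fold change of 0.66 in atherosclerosis and Itgb3 of 0.78, against 0.71 and 0.85 in the main fit.

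Hypertension was compared with controls to ask whether these genes differed after angiotensin II infusion. Raised blood pressure, the peptide itself and the pump surgery cannot be told apart in this comparison. None of the 9 genes passed an adjusted p under 0.05 with edgeR's quasi-likelihood test, and 0% of the 15999 genes tested did, while 3.71% had an unadjusted p under 0.05, none of the 9 among them. Relative to controls, 5 were higher and 4 lower, with a median log2 fold change of 0.13, against -0.01 over all genes tested, of which 48.1% were higher. Itgb3 had the largest log2 fold change upward, 0.49 (SE 0.50), and Pf4 downward, -0.65 (SE 0.54). Adjusted p values from edgeR were between 0.951 and 0.991, and the libraries overlapped with controls for all 9 genes, against 16.8% of all genes without overlap.

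In atherosclerosis, 8 of the 9 genes were higher than in controls and Ppbp was lower, but none was called by edgeR's quasi-likelihood test, against 0.144% of the genes tested. The median log2 fold change was 0.30, against 0.01 over all genes, of which 51.9% were higher. Gp1ba had the largest log2 fold change, 1.08 (SE 0.43), or 2.11-fold (unadjusted p = 0.0274, adjusted p = 0.766, edgeR), and was the 1 gene with an unadjusted p under 0.05, as were 5.97% of all genes. Itgb3 followed with a log2 fold change of 0.85 (SE 0.51, edgeR adjusted p = 0.871) and Itga2b with 0.71 (SE 0.34, edgeR adjusted p = 0.845). Pf4 (0.06, SE 0.53) and Ppbp (-0.07, SE 0.54) were near 0 on this log2 scale. All 9 overlapped with controls, against 9.51% of genes without overlap. Without the filter on low counts, edgeR called 432 of 36003 genes (1.2%) in this comparison, with Itga2b, Itgb3 and Gp1ba among them.

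After MI, 3 of the 9 genes were higher and 6 lower, none of them called by edgeR's quasi-likelihood test, as was 0% of all genes. At an unadjusted p under 0.05, 2.80% of all genes passed and none of the 9. The median log2 fold change was -0.16, against 0.00022 over all genes, of which 50.0% were higher, with Itga2b highest at 0.12 (SE 0.34) and Treml1 lowest at -0.33 (SE 0.43). Adjusted p values from edgeR were 1 for all 9 after rounding, and all 9 overlapped with controls, against 8.86% of genes without overlap. Exact permutation tests of 3 libraries against 3, which cannot go below p = 0.1, gave 0.2 or more for all 27 comparisons of a gene with controls.

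The sign of most of these differences rested on single libraries, controls among them. Without control 2, all 9 genes were higher than controls in each disease group, with median log2 fold changes of 0.92 (hypertension), 1.14 (atherosclerosis) and 0.63 (MI). Without control 3, the numbers higher were 2, 4 and 0, with medians of -0.12, -0.04 and -0.37. Without control 4, they were 3, 6 and 0, with medians of -0.10, 0.16 and -0.24. None of the 9 genes was called by edgeR's quasi-likelihood test in any of these. Over all genes, 3, 2 and 11 were called in atherosclerosis without controls 2, 3 and 4. The MI median was also positive, 0.16, without MI 3. In atherosclerosis, Itgb3 kept its sign without any control but turned to -0.11 without atherosclerosis 2. Pf4 turned to -0.26 there without atherosclerosis 4, and Gp9 to 0.01 in hypertension without hypertension 4. Of the 27 log2 fold changes, only those of Itgb3 and Gp1ba in hypertension and of Itga2b, Gp1ba and Gp5 in atherosclerosis kept their sign whichever library was left out.

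**Figure D4:**
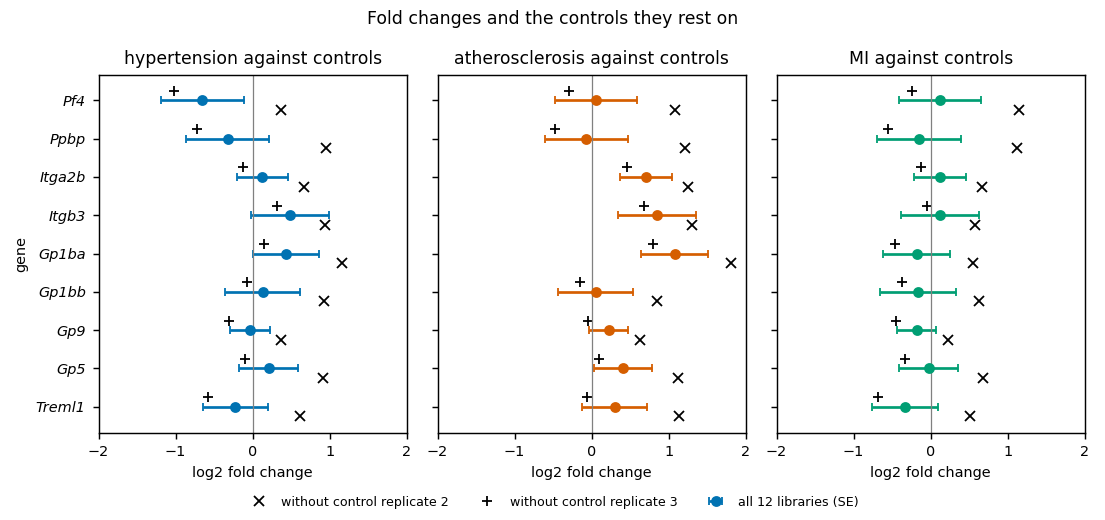
Log2 fold change against controls (horizontal axes) of the 9 genes in hypertension, atherosclerosis and MI, with SE bars, from all 12 libraries (circles) and without control replicate 2 (crosses) or 3 (plus signs). Every cross lies above 0 and to the right of its circle, and every plus sign to the left of it.

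Between disease groups, none of the 9 genes was called by edgeR's quasi-likelihood test. In atherosclerosis against hypertension, where 0.0625% of genes were called, 8 of 9 were higher, as were 54.6% of all genes, and none had an unadjusted p under 0.05, against 5.94% of all. Here the atherosclerosis libraries of Itga2b (log2 0.58, SE 0.34), Gp9 (log2 0.26, SE 0.26) and Treml1 (log2 0.52, SE 0.43) lay above every hypertension library, as did those of 5.81% of all genes. For MI against atherosclerosis, where 0.269% of genes were called, 8 of 9 were lower, and 47.7% of all genes were higher. Gp1ba differed most, with a log2 fold change of -1.26 (SE 0.44, unadjusted p = 0.0128, adjusted p = 0.27, edgeR), the 1 gene of the 9 with an unadjusted p under 0.05, against 12.7% of all. Gp1ba and Gp9 (log2 -0.41, SE 0.26) were lower after MI in every library, as were 7.44% of all genes. In MI against hypertension, with 0% of genes called, 8.41% at an unadjusted p under 0.05 and 50.8% higher, 2 of the 9 were higher and none had such a p. Gp1ba alone did not overlap (log2 -0.62, SE 0.43; 10.2% of genes did not overlap in this direction).

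A wider list of 71 genes of the lineage, in 8 roles, had all members tested. In hypertension 32 were higher and 39 lower, with a median log2 fold change of -0.04, in atherosclerosis 53 and 18 with a median of 0.17, and after MI 31 and 40 with a median of -0.06. Of all genes tested, 48.1% were higher in hypertension, 51.9% in atherosclerosis and 50.0% after MI. Of all 3 comparisons with controls, 1 gene of the 71 was called by edgeR, Gata2 in atherosclerosis. Of all genes tested, 0.144% were called in atherosclerosis and 0% in hypertension and after MI. Control 2 stood at least 2-fold above both other controls for 15 of the 71 genes, against 1.85% of all genes tested. Of the 71, 17 had r of at least 0.8 with the mean of the 9 genes, as did 80 of 15990 genes in all (0.500%). These r are descriptions over libraries that differ in depth and makeup.

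Genes for other adhesion and activation receptors had the highest median r of the 8 roles, 0.84. Of these 10 genes, 6 had r of at least 0.8, Gp6, the collagen receptor, at 0.95, and Clec1b, the podoplanin receptor CLEC-2, at 0.93 among them, while Cd9, a tetraspanin with the highest level in this role at 187 CPM per kb, had r of 0.084. Cd226, an adhesion receptor, had the smallest p of the role, with a log2 fold change of 1.01 in atherosclerosis (SE 0.41, edgeR adjusted p = 0.785). Of 8 agonist receptor genes, 2 had r of at least 0.8, the thrombin receptor genes F2rl2 (0.86), highest in level at 32.0 CPM per kb, and F2rl3 (0.91). P2ry12, the ADP receptor, had a log2 fold change of 0.58 in atherosclerosis (SE 0.27, edgeR adjusted p = 0.843). All 8 agonist receptor genes were higher there, as were 51.9% of all genes tested. None of the 8 was called, against 0.144% of all.

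Granule, enzyme and cytoskeleton genes were divided. Of 15 granule genes, 4 had r of at least 0.8, Selp (P-selectin) at 0.96 and Rab27b, a GTPase of granule release, at 0.95 among them, and the median was 0.17. Srgn, the core protein of granule proteoglycans, had the highest level at 183 CPM per kb. Bloc1s3, a subunit of a complex for lysosome-related organelles, had a log2 fold change of -1.14 in atherosclerosis (SE 0.31, edgeR adjusted p = 0.387). The part of the Apoe-/- genotype in this difference was not tested. Of 4 eicosanoid enzyme genes, Alox12, the platelet 12-lipoxygenase (0.96), and Tbxas1, thromboxane synthase (0.83), had r of at least 0.8, whereas Ptgs1, cyclooxygenase 1, had r of -0.34 and a log2 fold change of -0.18 in atherosclerosis (SE 0.12, edgeR adjusted p = 0.873). Of 10 cytoskeleton genes, Cavin2 (0.96), Myl9 (0.93) and Tubb1, the megakaryocyte β-tubulin (0.84), did so. Tpm4, a tropomyosin, had the highest level of that role at 106 CPM per kb, and Dnm3, a dynamin, a log2 fold change of 0.89 after MI (SE 0.33, edgeR adjusted p = 1).

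The listed genes of transcription and signalling had low median r, which describes these genes only and not their whole pathways. None of the 12 transcription factor genes had r of at least 0.8, with a median of 0.21, and Nfe2, required for platelet release and the highest in level at 181 CPM per kb, had r of -0.03. Of thrombopoietin signalling, the 5 genes covered were Jak2, Stat5a, Stat5b, Sh2b3 and Lyn. None of these reached 0.8 either, and their median r was 0.084. Lyn, a Src family kinase, was highest in level there at 34.5 CPM per kb, and Stat5a had a log2 fold change of -0.34 in hypertension (SE 0.15, edgeR adjusted p = 0.951). None of 7 integrin activation genes reached 0.8, with a median of 0.16, and Rap1b, the GTPase that switches integrins on, was highest in level at 323 CPM per kb. Skap2, an adaptor of that step, had a log2 fold change of -0.34 in hypertension (SE 0.15, edgeR adjusted p = 0.951).

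**Figure D5:**
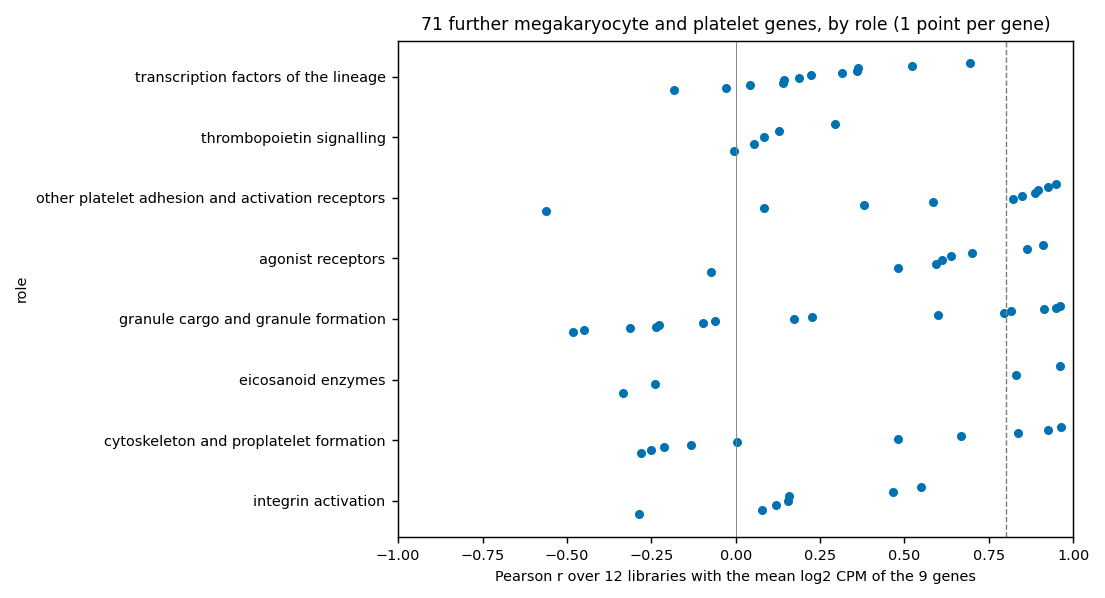
Pearson's r over the 12 libraries (horizontal axis) between log2 CPM of each of 71 further genes and the mean log2 CPM of the 9 genes, 1 point per gene, by role (vertical axis). The dashed line marks 0.8, which 17 genes pass, 6 of them other adhesion and activation receptors and none of them transcription factors, thrombopoietin signalling or integrin activation genes.

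Gata2, a factor of stem cells, mast cells and early megakaryocytes, rose in atherosclerosis. It stood at 20.2, 18.4 and 22.1 CPM in controls and at 35.0, 44.0 and 46.6 in atherosclerosis. It stood at 26.5, 25.4 and 30.9 CPM in hypertension and at 18.1, 22.3 and 25.8 after MI. Every atherosclerosis library was above every control (5.06% of all genes), and so was every hypertension library (9.02% of all genes). The log2 fold change in atherosclerosis was 1.05 (SE 0.17, edgeR adjusted p = 0.0342), with the mean at 41.9 ± 6.04 CPM (SD, n = 3) against 20.2 ± 1.90 in controls (SD, n = 3). The call was lost when controls 2, 3 or 4 (edgeR adjusted p = 0.156, 0.245 and 0.115) or atherosclerosis 3 or 4 (edgeR adjusted p = 0.108 and 0.107) were left out, and the log2 fold change stayed between 0.96 and 1.17. Over 15 alternatives its adjusted p ranged from 0.000123 to 0.245.

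Gata2 is itself a member of the marker lists of 2 other cell types. The 8 basophil and mast cell markers summed to 7301, 6669 and 2768 CPM in atherosclerosis 2, 3 and 4 and to 2168 to 3354 in controls, and the 10 stem and progenitor markers to 184, 185 and 206 CPM in atherosclerosis 2, 3 and 4 and to 139 to 142 in controls. Gata2 was highest in atherosclerosis 4, which was the lowest of its group in basophil markers and the highest in stem and progenitor markers. Both sums include Gata2 itself, at 35.0, 44.0 and 46.6 CPM in atherosclerosis 2, 3 and 4. Its match with the stem and progenitor sum is therefore partly built in. The part of these cells in its level was not tested.

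The genes outside the 9 whose log2 CPM most resembled their mean, among 13418 genes with a mean of at least 1 CPM, had r between 0.94 and 0.96 over the 12 libraries. In order they were Cavin2, Alox12, Selp, Gcsam, Gucy1b1, Gp6, Rab27b, Trpc6 and Lat, of which 5 were on the wider list. Among the other 4, Gucy1b1 encodes a subunit of the nitric oxide receptor, Trpc6 a cation channel and Lat an adaptor of immune-type receptors. Alox12 ranged from 22.4 to 108 CPM, with 98.5, 22.4 and 34.9 CPM in controls and 108, 53.4 and 76.9 in atherosclerosis. Gp6 was at 21.6, 4.49 and 6.71 CPM in controls. As with the 9 genes, control 2 was the highest control for both. Without control 2, r of these genes with the mean stayed between 0.93 and 0.96.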

How the data were processed

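RNA was measured in 12 libraries, 1 per mouse, from cells sorted as bone marrow endothelial cells. The authors aligned single-end reads to GRCm38.p6 with STAR 2.7.3a and deposited unnormalized counts per Ensembl gene from its gene counting, and which of the strand columns was taken is not given in the sources used here. Symbols, coordinates and exon lengths were joined from GENCODE M21, and 55154 of 55421 genes got a symbol. Replicate numbers and groups were taken from the labels. Samples are separate mice, and p-values measure the spread between them.

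In R 4.3.3, edgeR 4.0.16 removed genes with few counts (filterByExpr, 15999 left, with 99.9% of counts in the library where they held least), scaled libraries by TMM and fitted all 12 libraries with 1 coefficient per group (8 residual degrees of freedom, common dispersion 0.0634). Quasi-likelihood tests were two-sided, with Benjamini-Hochberg adjustment over all genes tested and a threshold of 0.05. Log2 CPM used a prior count of 1. Total counts of 17007088 to 25136936 limit precision most for Gp1bb. The fit was first tested on simulated data.

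The 9 genes, the 71 wider genes, the marker lists and the tests were chosen with earlier results of these data known. Named beyond the 9 were called genes of the wider list, for each role the gene with the highest CPM per kb and that with the smallest p, the most alike of 10 ranked genes, and genes overlapping a member. Of the genes listed, 1 is not reported here. Clec1b, F2rl3, Myl9, Tubb1 and Tbxas1 were named after their values were seen. Summed marker lists were of endothelial, erythroid, stem and progenitor, basophil and mast, monocyte (1175 to 2482 CPM), macrophage (847 to 1537 CPM), osteoclast, neutrophil and B cells (218 to 1193 CPM). Promoters are of RefSeq. Alternatives were edgeR's likelihood-ratio test, DESeq2 1.42.0, RLE size factors, no filter, a minimum of 10 counts per library, fits of 2 groups alone, hemoglobin and immunoglobulin genes left out (409 genes), the replicate number as a block, each library left out and, chosen after seeing the data, the trend on exon length removed and RLE scaling of the levels.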

Additional observations from a re-analysis of the deposited data

How the results depend on the processing

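The count of the 9 genes called against controls stayed at 0 in hypertension and after MI under all alternatives, and in atherosclerosis under all but 1. Without a filter on low counts, 36003 genes were tested, and 170 (0.472%) were called in hypertension, 432 (1.2%) in atherosclerosis, 130 (0.361%) after MI, 422 (1.17%) in MI against hypertension and 790 (2.19%) in MI against atherosclerosis. Of the 9, 3 were then called in atherosclerosis, 1 in MI against hypertension (Pf4) and 2 in MI against atherosclerosis (Itgb3 and Gp1ba). Against 23 genes in atherosclerosis, the likelihood-ratio test called 81, DESeq2 79 and a fit of only the 2 groups 4, and leaving out single libraries gave 2 to 34. After MI, the likelihood-ratio test, DESeq2 and the fit of 2 groups called 1 gene each. The cause was not tested. With group means subtracted, 7 of 36 correlations passed. Removing the trend on exon length, chosen after seeing the data, turned the log2 fold change to 0.0256 for Gp9 in hypertension and to 0.0892 for Ppbp in atherosclerosis.

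Leaving out single libraries, 39 of 162 log2 fold changes changed sign, in 22 of 27 results. In hypertension the ranges were -1.02 to 0.36 for Pf4, -0.73 to 0.96 for Ppbp, -0.12 to 0.67 for Itga2b, -0.23 to 0.93 for Gp1bb, -0.30 to 0.37 for Gp9, -0.10 to 0.92 for Gp5 and -0.58 to 0.62 for Treml1. In atherosclerosis they were -0.30 to 1.08 for Pf4, -0.47 to 1.21 for Ppbp, -0.11 to 1.30 for Itgb3, -0.31 to 0.85 for Gp1bb, -0.0441 to 0.62 for Gp9 and -0.0544 to 1.14 for Treml1. After MI they were -0.26 to 1.14 for Pf4, -0.55 to 1.12 for Ppbp, -0.13 to 0.66 for Itga2b, -0.18 to 0.58 for Itgb3, -0.46 to 0.55 for Gp1ba, -0.62 to 0.63 for Gp1bb, -0.45 to 0.22 for Gp9, -0.33 to 0.68 for Gp5 and -0.68 to 0.51 for Treml1. Gata2 in atherosclerosis was no longer called with only the 2 groups (log2 fold change 1.05, edgeR adjusted p = 0.206).

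The labels do not say that a replicate number marks mice handled together. Deviations from group means of same-numbered libraries correlated with r between -0.27 and 0.28 (median -0.0253), over 0.1 in 5 of 18 pairs. Differently numbered libraries of different groups had r between -0.29 and 0.37 (median 0.0069), over 0.1 in 11 of 36 pairs. Of the 12 libraries, 4 correlated best with their own number. With the replicate number as a block, 7 genes were called in atherosclerosis and 0 of the 9. The block turned the log2 fold change of Ppbp to 0.016 in hypertension, 0.29 in atherosclerosis and 0.0868 after MI, of Gp9 to 0.0385 in hypertension and of Gp5 to 0.0538 after MI. Counts were lowest for Gp1bb, at 16 to 65, a gene that shares 91.1% of its exon bases with Sept5.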
